A study of Mus musculus with 4 samples.

Results

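The cells described here are thick ascending limb cells of the aged mouse kidney, 571 barcodes of the 50605 that passed the quality limits in 4 single-cell libraries (1.13%), out of 76278 deposited. They were chosen by their own counts of unique molecular identifiers (UMIs, 1 per captured RNA molecule). A member held at least 5 UMIs of Slc12a1 and more Slc12a1 than Slc12a3, no UMI of Ptprc, Pecam1 or Cdh5, and at most 3 UMIs of Lrp2 and Slc34a1 together. These 7 genes therefore chose the cells and are given without a test. Barcodes with over 50% mitochondrial UMIs were left out by the same rule, so the mitochondrial share and the 13 mitochondrial genes are also given as a description, without a test. All animals were male C57BL/6 mice aged 19 months. For 1 month, 1 group received BPTES, a glutaminase inhibitor, and the control group received its vehicle DMSO, with 2 libraries in each. Each library mixed 20000 sorted CD45-negative cells with 9000 CD45-positive cells of the same kidney tissue. The labels do not say how many mice stand behind a library, so p-values measure only the spread between these libraries. The comparison asks which transcripts of the thick ascending limb differ between BPTES-treated and vehicle-treated aged kidneys.

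The thick ascending limb reabsorbs sodium chloride without water, which dilutes the tubule fluid and builds the osmotic gradient of the medulla. Slc12a1 encodes the apical NKCC2 cotransporter, the target of loop diuretics, Kcnj1 the ROMK channel that recycles potassium to the lumen, and Bsnd a subunit of the basolateral chloride exit. The positive lumen drives calcium and magnesium through the claudin-16 and claudin-19 pores of the cortical segment, while claudin-10 forms the sodium pore of the medullary segment. The segment also secretes uromodulin and releases epidermal growth factor, and at its end it touches the glomerulus with the macula densa, a plaque of salt-sensing cells that express the neuronal nitric oxide synthase Nos1.

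Libraries 1 and 2 gave 146 and 105 BPTES members and 146 and 174 DMSO members, with 1646258, 1144418, 1712176 and 2932060 UMIs in the same order. A median BPTES member had 7361.5 and 8120.0 UMIs in libraries 1 and 2, and a median DMSO member 6931.5 and 12226. The second DMSO library was thus the deepest, both per cell and in sum. Between 90 and 114 barcode strings occurred in both libraries of a pair, 36 to 54 of them among kept barcodes, and the added tdTomato sequence had no UMI. Scrublet marked 4 members as doublets.

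The marker genes that the rule did not use were present in nearly all members. Umod, the gene for uromodulin, had a UMI in 98.2% of members, and Egf in 84.8%. In counts per 1000000 UMIs of the summed members (CPM), Umod stood at 14692 and 15368 under BPTES and 16282 and 12947 under DMSO. In proximal tubule barcodes of the same libraries, which should lack the gene, it stood at 4.04 to 7.46 CPM. Distal convoluted tubule barcodes, defined by the mirrored rule on the thiazide-sensitive cotransporter gene Slc12a3, held 1671 to 3496 CPM of Umod. Egf was at 6127 and 7443 CPM in BPTES members and 4601 and 4879.8 CPM in DMSO members, against 3.23 to 4.92 CPM in proximal tubule barcodes. The calcium-sensing receptor gene Casr reached 147 to 222 CPM in members, 53.9 to 70.5 CPM in the distal convoluted tubule and at most 0.43 CPM in the proximal tubule. Cldn16 was nearly absent outside the segment, at 162 to 192 CPM in members against at most 2.00 CPM in the distal convoluted tubule and 0.0969 CPM in the proximal tubule. Kcnj1 marked both distal segments, with 477 to 541 CPM in members and 459.8 to 659 CPM in the distal convoluted tubule. Slc12a1, which chose the members, lay between 10060.4 and 11377 CPM in them. Just inside its limit, 26 members held 5 Slc12a1 UMIs and 22 of these had a Umod UMI. Just outside it, 28 barcodes held 4 Slc12a1 UMIs and 26 of these had a Umod UMI.

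Summed markers of other cell types lay below those of the thick ascending limb, which were at 22277 to 27743 CPM in members. Plasma cell markers came to 708 and 809 CPM in BPTES members and 148 and 126 CPM in DMSO members, and macrophage and dendritic markers to 105 to 276 CPM, and both are taken up with the genes they move with. Summed proximal tubule markers stood at 377 to 628 CPM in members, against 38698 CPM or more in proximal tubule barcodes. Summed distal convoluted tubule markers stood at 1290 to 1846 CPM, against 7033 to 10683 CPM in that class. Endothelial markers summed to 21.0 to 28.8 CPM, collecting duct principal cell markers to 21.0 to 33.9 CPM and intercalated cell markers to 5.24 to 30.4 CPM, with Slc4a1, Foxi1 and Hmx2 at 0. Fibroblast markers reached at most 7.84 CPM with Lum and Tagln at 0, podocyte markers at most 4.86 CPM with Wt1 at 0, and T and NK cell markers at most 11.1 CPM. B cell markers reached at most 7.90 CPM, neutrophil markers 17.5 CPM with Cxcr2 at 0, and erythroid markers 3.04 CPM with Hba-a2 at 0.

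Members made up 1.91% (exact 95% binomial interval 1.62 to 2.25%) and 1.58% (1.30 to 1.91%) of the barcodes without Ptprc in the BPTES libraries. In the DMSO libraries they made up 2.00% (1.69 to 2.34%) and 2.33% (2.00 to 2.70%). Both BPTES shares were lower than both DMSO shares, at a mean of 1.75% ± 0.234 (SD, n = 2) against 2.16% ± 0.237 (SD, n = 2), yet the exact two-sided permutation test gave p = 0.333, the smallest value that 2 libraries against 2 allow. As shares of all kept barcodes the groups were not apart, at 1.113% and 0.899% against 1.112% and 1.373%. With Slc12a1 at 10 or more UMIs they overlapped as well, at 1.67% and 1.34% against 1.54% and 2.00%, and with the 25% mitochondrial limit they were 1.23% and 1.10% against 1.67% and 1.99%. These intervals cover counting error only.

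Mitochondrial transcripts took a larger share of the UMIs in BPTES than in DMSO members. They made up 27.9% and 28.5% of the UMIs of a median BPTES member and 12.6% and 13.4% of those of a median DMSO member. In the distal convoluted tubule the medians were 18.9% and 19.9% against 15.8% and 16.3%, and in the proximal tubule 17.3% and 21.8% against 13.1% and 16.3%. All 3 classes had non-overlapping BPTES and DMSO medians, with a gap of 15.2 percentage points in members, 3.35 in the distal convoluted tubule and 4.85 in the proximal tubule. These values are a description, since the rule set a limit on this share. Members with at most 25% mitochondrial UMIs made up 45.9% and 45.7% of BPTES members but 64.4% and 66.1% of DMSO members. The results below were also computed in members with at most 25%.

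**Figure D1:**
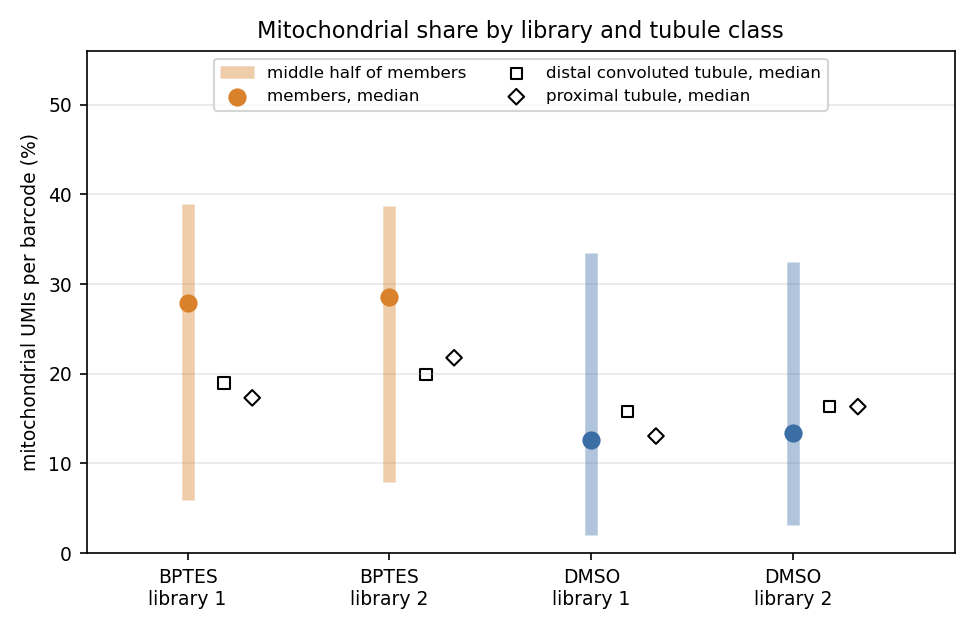
Mitochondrial share of UMIs per barcode (y axis, %) in each library (x axis). Large dots are the medians of thick ascending limb members and bars their interquartile range, and open squares and diamonds are the medians of distal convoluted and proximal tubule barcodes. The 2 BPTES medians of members are 27.9% and 28.5%, and the 2 DMSO medians 12.6% and 13.4%.

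Within the segment, members fell into a Cldn16-leading and a Cldn10-leading kind according to which of the 2 claudin genes had more UMIs. Where the counts differed, Cldn16 led in 34.8% and 37.8% of BPTES members and in 29.5% and 35.8% of DMSO members. The groups overlapped and the exact permutation p was 0.667. The direction of this difference turned with an alternative filter and with thinning, as given in the closing section. UMIs of both claudins occurred in 160 members, so the 2 kinds are ranges of a ratio and not sealed classes.

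Other genes followed this split in each of the 4 libraries, which is given as a description because the same cells supplied the ratio. Tmem52b was at 721 to 998 CPM in the Cldn16-leading members and 12.4 to 63.0 CPM in the Cldn10-leading members. Foxq1, a forkhead transcription factor gene, was at 111 to 231 CPM against 3.34 to 17.6 CPM. The basolateral potassium channel gene Kcnj10 showed 86.1 to 160.4 CPM against 20.6 to 36.8 CPM, and the parathyroid hormone receptor gene Pth1r 302 to 376 CPM against 92.0 to 166 CPM. Casr had 206 to 327 CPM in the Cldn16-leading and 110.1 to 164 CPM in the Cldn10-leading members. Pth1r and Casr serve the hormonal control of calcium in the cortical segment. On the other side, the prostaglandin E receptor gene Ptger3 was at 631 to 755 CPM in Cldn10-leading members and 119 to 163 CPM in Cldn16-leading ones. Ptgds, a prostaglandin D synthase gene, had 24.4 to 161 CPM against 2.36 to 11.9 CPM, and Irx1 100.3 to 137 CPM against 13.6 to 31.7 CPM. The Iroquois transcription factor genes thus divided, since Irx3 was higher in Cldn16-leading members (89.7 to 134 CPM against 15.0 to 37.2 CPM) while Irx1 and Irx2 were higher in Cldn10-leading members. Umod overlapped between the 2 kinds, at 12511 to 17171 CPM and 13273 to 16291 CPM.

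**Figure D2:**
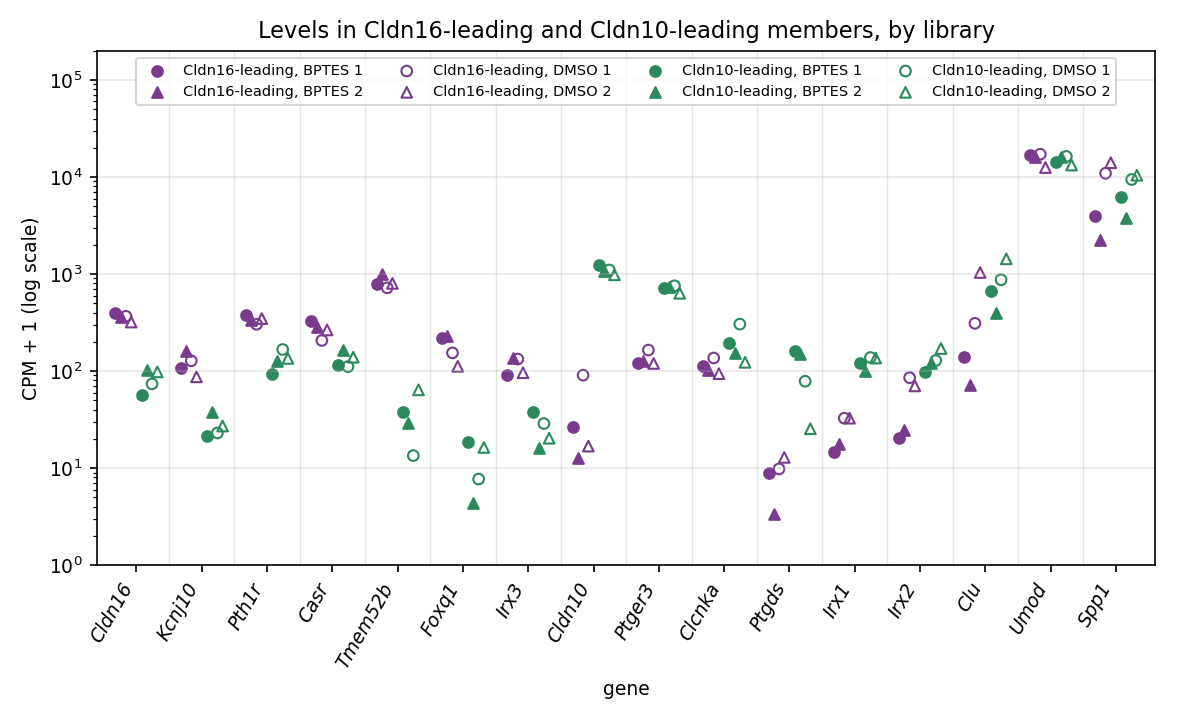
Level of 16 genes (y axis, CPM + 1, log scale) in Cldn16-leading members (purple) and Cldn10-leading members (green) of each library, with filled symbols for BPTES, open symbols for DMSO, circles for library 1 and triangles for library 2. Cldn16 and Cldn10 defined the split, the genes from Kcnj10 to Irx3 lie higher on the purple side, and those from Ptger3 to Clu on the green side, in all 4 libraries.

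Between BPTES and DMSO members, edgeR's quasi-likelihood test on the summed UMIs called 15 of 10025 tested genes (0.15%) at an adjusted p under 0.05, 2 higher (0.02%) and 13 lower (0.13%) under BPTES. At an unadjusted p under 0.05 there were 634 genes (6.32%), 238 higher (2.37%) and 396 lower (3.95%). Libraries of the 2 groups did not overlap for 1679 genes that were higher (16.7%) and 1795 that were lower under BPTES (17.9%). The 2 higher genes were Igkc and Jchain, parts of secreted antibodies. Among the 13 lower genes were Spp1, Lgals3, C3 and Socs3, which respond to injury or cytokines, and Nos1 of the macula densa. Nos1, Cd86, Socs3 and C3 had 0 to 3 UMIs in all BPTES members and passed the filter on low counts through the DMSO libraries alone, so they had to be higher there to be tested. Jchain (11 and 8 DMSO UMIs) and Sema6a (4 and 7 BPTES UMIs) also needed the libraries of the group where they are higher to pass it. The p-values of all these genes are given as a description. The count of calls rested on few libraries and few cells. It was 72 without BPTES library 1, 52 without BPTES library 2, 216 without DMSO library 1 and 55 without DMSO library 2, and 35 without 2 members of DMSO library 2 that held 5 or more C1q UMIs. Values below are CPM after TMM scaling, BPTES libraries 1 and 2 first, and log2 fold changes are BPTES over DMSO. Their standard error (SE) is an approximation, the absolute log2 fold change divided by the square root of the test's F statistic.

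**Figure D3:**
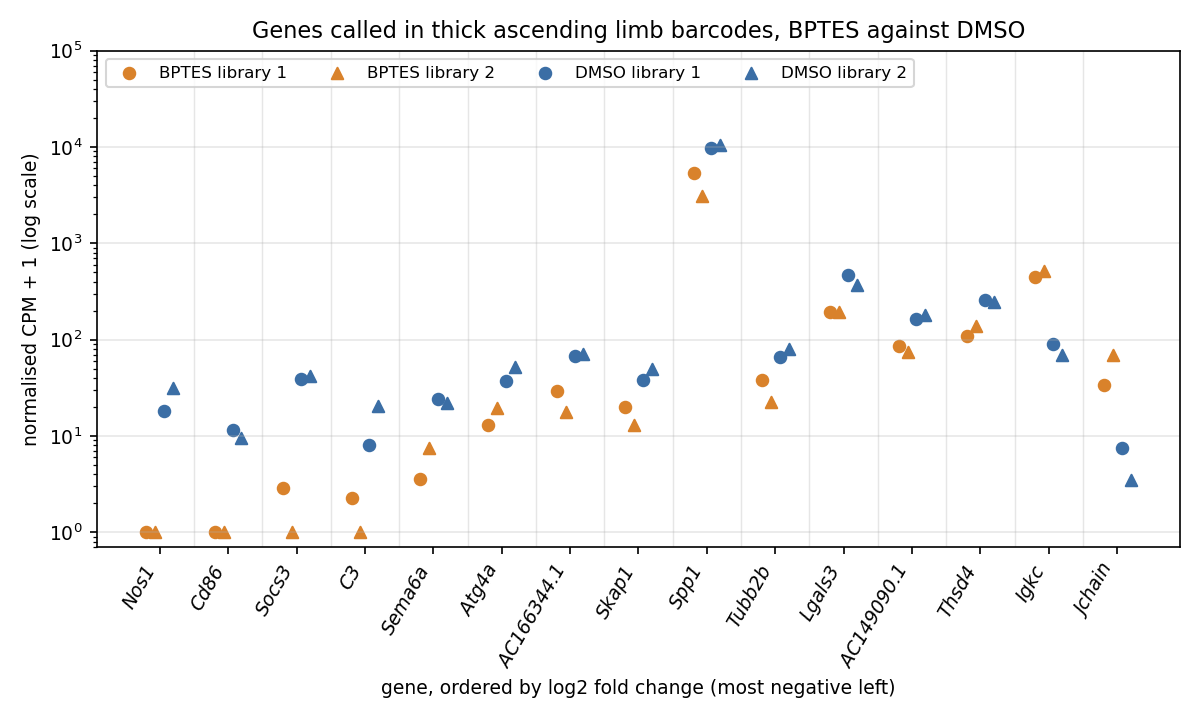
Normalised CPM + 1 (y axis, log scale) of the 15 called genes (x axis) in the 4 libraries, orange for BPTES and blue for DMSO, circles for library 1 and triangles for library 2. Igkc and Jchain lie higher in both BPTES libraries than in both DMSO libraries, the other 13 genes lower, and Nos1 and Cd86 have no UMI under BPTES.

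The counts of called genes in the lists below moved with the same libraries. With 1 library left out, its group has 1 library, which is assumed to vary like the pair of the other group, so calls from those fits show what depends on a library and support nothing. For 20 of the 22 lists at least 1 gene was called with some library left out.

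The transport programme that defines the segment showed no called gene with all 4 libraries, and 1 higher call without DMSO library 1. Of 17 tested genes of sodium chloride transport, 0 were called, 4 had non-overlapping libraries higher and 1 lower under BPTES (23.5% and 5.88%, against 16.7% and 17.9% of all tested genes), and the median log2 fold change was 0.07 against -0.01 over all tested genes. Kcnj1 was at 526 and 507 CPM under BPTES and 546 and 459 CPM under DMSO, and Bsnd at 61.6 and 66.8 against 64.7 and 57.9 CPM. The groups overlapped for both genes. Slc9a3, which encodes the apical sodium-proton exchanger NHE3, had 167 and 164 against 144 and 104 CPM (log2 fold change 0.43, SE 0.19, adjusted p = 0.71).

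Regulators of NKCC2 gave 0 calls among 22 tested genes, with a median log2 fold change of 0.03, and 1 lower call without BPTES library 2 or without DMSO library 1. Casr was at 194 and 236 CPM under BPTES and 148 and 172 CPM under DMSO, and its groups did not overlap (log2 fold change 0.42, SE 0.19, edgeR adjusted p = 0.71). Ppp1r1a, which encodes a phosphatase inhibitor, was at 1700.4 and 1739 against 1509.5 and 1126 CPM (log2 fold change 0.39, SE 0.21, adjusted p = 0.855). The kinase genes Wnk1 and Stk39 had log2 fold changes of 0.08 (SE 0.19) and -0.26 (SE 0.19). The lowest value in the list belonged to the calcitonin receptor gene Calcr, with 0 and 0.928 CPM under BPTES and 7.65 and 10.8 CPM under DMSO. It missed the threshold (adjusted p = 0.052, edgeR). Calcr passed the filter on low counts through the DMSO libraries alone, so its values and this p are a description.

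Paracellular and divalent cation genes likewise had 0 calls among 18 tested, with 2 lower calls without DMSO library 1 and 1 without DMSO library 2. Cldn16 stood at 169 and 204 CPM under BPTES and 175 and 159 CPM under DMSO, Cldn10 at 808 and 608 against 714 and 555 CPM, and Cldn19 at 267 and 167 against 244 and 195 CPM. All 3 overlapped between groups, with log2 fold changes of 0.16 (SE 0.18), 0.16 (SE 0.20) and 0.0008 (SE 0.21). Cldn3, a barrier claudin gene, was lower in both BPTES libraries, at 20.9 and 19.5 against 31.2 and 53.1 CPM, without passing the test (log2 fold change -1.09, SE 0.29, adjusted p = 0.192).

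Among 18 secreted and surface proteins, 1 gene was called lower (0.13% of all tested genes were), and the 2 characteristic products of the segment did not pass the test. Without overlap, 5 genes were higher and 4 lower (27.8% and 22.2%, against 16.7% and 17.9% of all tested genes). Umod was at 15352 and 16328 CPM under BPTES and 16406 and 12008 CPM under DMSO (log2 fold change 0.16, SE 0.26). Egf was higher in both BPTES libraries, at 6402 and 7908 CPM against 4636 and 4526 CPM, with a log2 fold change of 0.64 (SE 0.23) and an adjusted p of 0.501 by edgeR. When members were thinned to 2000 UMIs each, which gives equal weight to the 479 of 571 that had as many and leaves out the rest, Egf passed the threshold at a log2 fold change of 0.65. Its log2 fold change was 0.49 to 0.79 with 1 library left out, past the threshold without DMSO library 1 alone (0.67), when 3 genes of the list were called higher and 3 lower. Without BPTES library 1 or without DMSO library 2 the list had 2 lower calls.

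Spp1 was the secreted gene that fell. It encodes osteopontin, a phosphoprotein of tubule cells that is raised in kidney injury, and lies on chromosome 5 at 104435118 to 104441050 of GRCm38. Its level was 5391 and 3105 CPM under BPTES and 9839 and 10607 CPM under DMSO, so both BPTES libraries were below both DMSO libraries. The log2 fold change was -1.27 (SE 0.26, adjusted p = 0.0348, edgeR). The call was lost without BPTES library 2 (log2 fold change -0.92, adjusted p = 0.567) and in members with at most 25% mitochondrial UMIs (-1.14, adjusted p = 0.342). It was also lost with DESeq2 (-1.26, adjusted p = 0.88), with Slc12a1 at 10 or more UMIs (-1.16, adjusted p = 0.172) and in Cldn10-leading members alone (-0.86, adjusted p = 0.579).

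Lgals3, the gene for galectin-3, fell as well (chromosome 14, 47367751 to 47386160). Galectin-3 is a secreted lectin of injured epithelium and of macrophages. It was at 192 and 194 CPM under BPTES and 468 and 370.1 CPM under DMSO, without overlap (log2 fold change -1.12, SE 0.19, adjusted p = 0.0052, edgeR). UMIs came from 63 and 50 BPTES members and 76 and 129 DMSO members. The call held in members with at most 25% mitochondrial UMIs (log2 fold change -1.16), but not in Cldn16-leading members alone (-1.73, adjusted p = 0.0795) and in Cldn10-leading members alone (-0.73, adjusted p = 0.54). With 1 library left out the log2 fold change ran from -1.28 to -0.93. Macrophage and dendritic markers, whose sums are given with the inflammatory genes, were lower in both BPTES libraries too, and their part in the result was not tested.

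Lcn2 encodes the lipocalin NGAL, a urinary marker of tubule injury, and pointed the same way without passing. It was at 130.1 and 50.1 CPM under BPTES and 375 and 435 CPM under DMSO (log2 fold change -2.13, SE 0.47, adjusted p = 0.525, edgeR). Its UMIs came from 14 and 9 BPTES members and 42 and 63 DMSO members. Thinned to 2000 UMIs per member, the log2 fold change was -3.03 with an adjusted p of 1.6e-14. Lcn2 also passed with no Lrp2 or Slc34a1 UMI (-4.33, adjusted p = 5.2e-07), in Cldn10-leading members (-1.81, adjusted p = 0.042) and with no low-count filter (-2.13, adjusted p = 6.0e-18). It did not pass with the 25% mitochondrial limit (-1.84, adjusted p = 0.937) or without members holding 5 or more C1q UMIs (-2.09, adjusted p = 0.516). With 1 library left out, and so 1 library in a group, the log2 fold change was -3.01 to -1.63.

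Over the list of 24 tested injury and repair genes, 0 were called, 0 had higher and 4 lower non-overlapping libraries (16.7%, where 17.9% of all tested genes were lower), and the median log2 fold change was -0.33. The keratin gene Krt18 was at 25.4 and 14.9 CPM against 31.8 and 54.1 CPM (log2 fold change -1.08, SE 0.31, adjusted p = 0.282). The DMSO libraries differed for S100a6, at 89.5 and 152 CPM under BPTES and 58.3 and 524 CPM under DMSO. Without that library the list's median was 0.22, above 0, so the direction of the list as a whole rested on it, and 2 of 26 tested genes were called higher and 1 lower. Without DMSO library 1, 8 genes of the list were called lower, without BPTES library 1 there were 3 and without BPTES library 2 there was 1.

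Socs3, the feedback inhibitor of cytokine receptors that signal through STAT3, was 1 of the 13 lower genes. It passed the low-count filter through the DMSO libraries alone, so its p-values are given as a description. It held 3 UMIs in 251 BPTES members and 192 UMIs in 320 DMSO members. The level was 1.90 and 0 CPM under BPTES and 37.7 and 40.5 CPM under DMSO (adjusted p = 1.62e-06, edgeR). As a ratio of summed UMIs it was 38.5-fold lower, with an exact 95% interval from counting of 13.0 to 188. The UMIs were spread over 3 and 0 members under BPTES and 18 and 26 members under DMSO. Of the 64 and 128 DMSO UMIs, 19 and 38 lay in 1 member each. The interval takes UMIs as independent and covers neither this clumping nor the spread between libraries. The call was lost with no Lrp2 or Slc34a1 UMI (adjusted p = 0.087) and in Cldn16-leading members alone (adjusted p = 0.193). A window of its locus is shown because STAT proteins bind a palindrome whose letters can be read in it. The 250 bases before the start in the RefSeq table on GRCm38.p6 (chr11:117969367-117969616, minus strand, read 5′ to 3′) have the palindrome TTCNNNGAA, searched on both strands, in capitals.
Socs3: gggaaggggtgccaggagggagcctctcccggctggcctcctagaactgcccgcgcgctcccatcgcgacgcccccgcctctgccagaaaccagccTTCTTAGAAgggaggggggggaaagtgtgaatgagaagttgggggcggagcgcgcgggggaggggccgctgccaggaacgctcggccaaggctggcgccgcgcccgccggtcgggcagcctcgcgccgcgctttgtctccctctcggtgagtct
The pattern occurs 1 time in this window and in 7.02% of 32851 windows of the same length. The window lies inside the bounds of the GENCODE gene (chromosome 11, 117966079 to 117970047) and partly in an exon of a non-coding transcript, and the bases that follow it are in no GENCODE transcript of Socs3, so it is not shown to be the promoter in use.

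C3, the central complement component, was the other called gene with an inflammatory role. Like Socs3, it passed the low-count filter through the DMSO libraries alone, so its p-values are given as a description. It had 2 UMIs in BPTES members and 73 in DMSO members, and stood at 1.27 and 0 CPM against 7.06 and 19.3 CPM (adjusted p = 0.0348, edgeR). The ratio of summed UMIs was 21.9-fold lower, with an exact 95% counting interval of 5.86 to 185. These UMIs came from 1 BPTES member and from 4 and 12 DMSO members. Of the 12 and 61 DMSO UMIs, 9 and 22 lay in 1 member each, which the interval does not cover, nor does it cover the spread between libraries. The window before its RefSeq start (chr17:57228137-57228386, minus strand, GRCm38.p6) is set beside that of Socs3 for comparison and holds neither TTCNNNGAA, nor the AP-1 motif TGANTCA (in 6.75% of windows), nor the kB motif of NF-kB (in 3.90% of windows).
C3: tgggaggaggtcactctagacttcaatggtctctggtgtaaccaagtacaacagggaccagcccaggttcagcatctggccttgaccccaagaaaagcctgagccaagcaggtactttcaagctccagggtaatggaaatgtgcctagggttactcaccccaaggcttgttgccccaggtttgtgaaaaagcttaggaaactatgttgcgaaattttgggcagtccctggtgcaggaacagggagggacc
The windows before the RefSeq starts of Lcn2, Spp1 and Lgals3 held none of the 3 patterns either, which says only that these letters are not in those windows.

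The NF-kB and inflammatory list, to which C3 belongs, had 19 tested genes with 1, C3 itself, called lower (0.13% of all tested genes were). Non-overlapping libraries were higher for 1 gene and lower for 8 (5.26% and 42.1%, against 16.7% and 17.9% of all tested genes), and the median log2 fold change was -0.34. The chemokine gene Cxcl16 was at 38.1 and 26.9 CPM against 53.6 and 64.2 CPM, and Cxcl10 at 35.5 and 13.0 CPM against 54.1 and 43.3 CPM. Neither passed (adjusted p = 0.25 and 0.61, edgeR). Nfkbia, the gene for the inhibitor of NF-kB, had 105 and 33.4 against 41.2 and 50.9 CPM, with overlap. The list's median was 0.11 without DMSO library 2, with 1 gene called higher and 0 lower. Without DMSO library 1 there were 4 lower calls and without BPTES library 1 there were 3. Macrophage and dendritic markers moved with these genes: all 10 were lower in both BPTES libraries, with summed levels of 139 and 105 CPM against 186 and 276 CPM in members, none of them at 0 in all libraries. In proximal tubule barcodes the same sums were 123 and 116 against 239.9 and 267 CPM. C1qb UMIs were found in 6 and 5 BPTES members and 21 and 26 DMSO members. The part of these markers in the result was not tested. C3 lost its call with DESeq2 (adjusted p = 1.00) and gave a value in 13 of 20 alternatives.

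Cd86, a costimulatory gene known from dendritic cells and macrophages, had no UMI in BPTES members and 45 UMIs in 9 and 7 DMSO members. Against a floor of 3 UMIs over the group it was at least 9.01-fold lower. It was singled out after its values were seen and is given as a description. Its call was lost with DESeq2 (adjusted p = 0.513) and with the 25% mitochondrial limit (adjusted p = 0.0537).

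Of 21 tested immediate early genes, Socs3 was the 1 called (0.15% of all tested genes were), and the list's median log2 fold change was 0.16. Without overlap, 3 genes were higher and 2 lower (14.3% and 9.52%, against 16.7% and 17.9% of all tested genes). The median was below 0 under other settings, at -1.24 with no Lrp2 or Slc34a1 UMI (17 tested), -0.71 with thinned members (12 tested), -0.35 without predicted doublets and -0.22 in Cldn16-leading members. Fos stood at 319 and 118 CPM under BPTES and 191 and 206 CPM under DMSO, Egr1 at 95.2 and 19.5 against 77.7 and 123 CPM, and Junb at 133 and 54.8 against 109 and 148 CPM. All 3 overlapped between groups, and BPTES library 1 was above BPTES library 2 for each. Without BPTES library 1 the list had 5 lower calls, and without BPTES library 2 or without DMSO library 2 it had 3 higher and 1 lower.

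Nos1, the marker of the macula densa, was seen in DMSO members alone. It had no UMI in 251 BPTES members, which allows a share of up to 1.20% of members with a UMI (a limit for counting over the pooled cells of 2 libraries only), and 125 UMIs in 6 of 320 DMSO members (1.88%). By library these were 0 and 0 against 2 and 4 members. In DMSO library 1, 28 of 29 Nos1 UMIs lay in 1 member, and in DMSO library 2, 68 of 96. The level was 0 and 0 CPM against 17.1 and 30.4 CPM, at least 25-fold lower in the summed members, which is given as a description. Pappa2, a pregnancy-associated plasma protein protease gene that the macula densa also expresses, had 0 UMIs under BPTES and 564 UMIs in 1 and 3 DMSO members, of which 453 lay in 1 barcode. It did not pass the test (adjusted p = 0.946). Robo2, a guidance receptor gene, was at 6.98 and 4.64 CPM against 39.4 and 111 CPM (log2 fold change -3.68, SE 0.90, adjusted p = 0.675). In all, 6 of 12 listed macula densa and prostaglandin genes could be tested, with a median log2 fold change of -2.81, also with Nos1 and Pappa2 set to their bounds. Both had no BPTES UMI and passed the filter on low counts through the DMSO libraries, so this median is a description only. With no such filter it was -2.04 over 11 genes. The median was -0.0044 without the 6 members that held Nos1 and 0.23 with no Lrp2 or Slc34a1 UMI, over 3 testable genes each. Without DMSO library 1, 4 genes of the list were called lower, and without DMSO library 2 there were 3. A Nos1 call over whole libraries therefore counts 6 cells, and fewer macula densa cells among the members and less Nos1 RNA per cell cannot be told apart. Genes on both strands overlap the Nos1 locus (chromosome 5, 117781032 to 117958840). Sema6a, a semaphorin gene at 2.54 and 6.5 against 23 and 21.2 CPM that was also singled out after its values were seen, had a log2 fold change of -2.37. It was -1.93 without these 6 members (adjusted p = 0.137) and -1.74 without BPTES library 1 (adjusted p = 0.125), past the threshold in neither.

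The antibody genes gave the 2 calls in the other direction. Igkc, the kappa light chain constant region (chromosome 6, 70726435 to 70726966), was at 446 and 512 CPM under BPTES and 90.0 and 67.7 CPM under DMSO (log2 fold change 2.62, SE 0.20, adjusted p = 6.33e-09, edgeR). Jchain, which joins IgA and IgM units, was at 33.0 and 67.8 CPM against 6.47 and 2.53 CPM (log2 fold change 3.59, SE 0.46, adjusted p = 0.0052). It needed the BPTES libraries to pass the low-count filter, so this p is a description. Igkc UMIs were found in 141 of 146 and 101 of 105 BPTES members, at no more than 24 UMIs in a member, and in 89 of 146 and 108 of 174 DMSO members. Plasma cells are the known source of these transcripts. In proximal tubule barcodes Igkc stood at 257 and 474 CPM against 61.5 and 59.7 CPM, and in the distal convoluted tubule at 340.3 and 448 against 77.3 and 76.8 CPM. The effect in members differed from that in the distal convoluted tubule by 0.20 and from that in the proximal tubule by -0.0025 on the log2 scale (adjusted p = 0.847 and 1.00, edgeR interaction). Summed plasma cell markers, which include Igkc and Jchain themselves, were at 708 and 809 CPM in members against 148 and 126 CPM. Of the 8 markers, 5 were higher and 1 lower in both BPTES libraries, and their part in the result was not tested. The Igkc call held under all 20 alternatives, and that of Jchain under 18, being lost among others in Cldn16-leading members alone (2.49, adjusted p = 0.28). Some of these alternatives left out 1 library, and those fits support nothing.

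Genes of mitochondrial respiration were often higher in both BPTES libraries, without a single call. Of 64 tested nuclear genes of the respiratory chain, 0 were called, 36 had non-overlapping libraries higher under BPTES and 0 lower, where 16.7% and 17.9% of all genes did. Their median log2 fold change was 0.25, and all 64 values lay between 0.04 and 0.44. Without DMSO library 1 there was 1 higher call among them, at a median of 0.46. Of the 13 genes encoded in the mitochondrial genome, 12 were higher without overlap, with a median of 0.46, from which nothing is read because the rule used these genes. The cytochrome b gene mt-Cytb was at 23131 and 23171 CPM under BPTES and 17788 and 13292 CPM under DMSO (log2 fold change 0.58). The medians depended on DMSO library 2 and on the mitochondrial limit. Without that library they were 0.07 and 0.25, and in members with at most 25% mitochondrial UMIs they were 0.11 and -0.05. The median of the mitochondrial genes was 0.59 with members thinned to 2000 UMIs and 0.75 without DMSO library 1.

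No gene of the tricarboxylic acid cycle list passed either, with 16 of 28 genes higher without overlap and 1 lower (57.1% and 3.57%, against 16.7% and 17.9% of all tested genes), 0 called and a median log2 fold change of 0.26. Idh2, the mitochondrial isocitrate dehydrogenase gene, was at 701 and 693 CPM against 545 and 409 CPM (log2 fold change 0.55, SE 0.19, adjusted p = 0.487). Without DMSO library 2 the median was 0.08, and without DMSO library 1 it was 0.47 with 2 higher calls. Malate dehydrogenase Mdh1 was at 1020.0 and 970.2 against 869 and 637 CPM.

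No gene of glutamine and glutamate metabolism passed the test. Glul, the glutamine synthetase gene, was low in members, at 6.98 and 11.1 against 6.47 and 12.7 CPM, and Glud1, the glutamate dehydrogenase gene, was at 286 and 247 against 234 and 221 CPM. Of the 23 tested genes, 0 were called, 5 were higher and 3 lower without overlap (21.7% and 13.0%, near the 16.7% and 17.9% of all tested genes), and the median log2 fold change was 0.11. The amino acid stress list had 0 calls among 21 genes, 2 higher and 7 lower without overlap (9.52% and 33.3%, against the same shares) and a median of -0.19. It had 1 lower call without BPTES library 1 or without DMSO library 1, and 1 higher call without BPTES library 2. Its lowest member was Atf3, a stress-induced transcription factor gene, at 34.9 and 13.9 CPM against 54.7 and 68.6 CPM (log2 fold change -1.28, SE 0.31, adjusted p = 0.159).

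**Figure D4:**
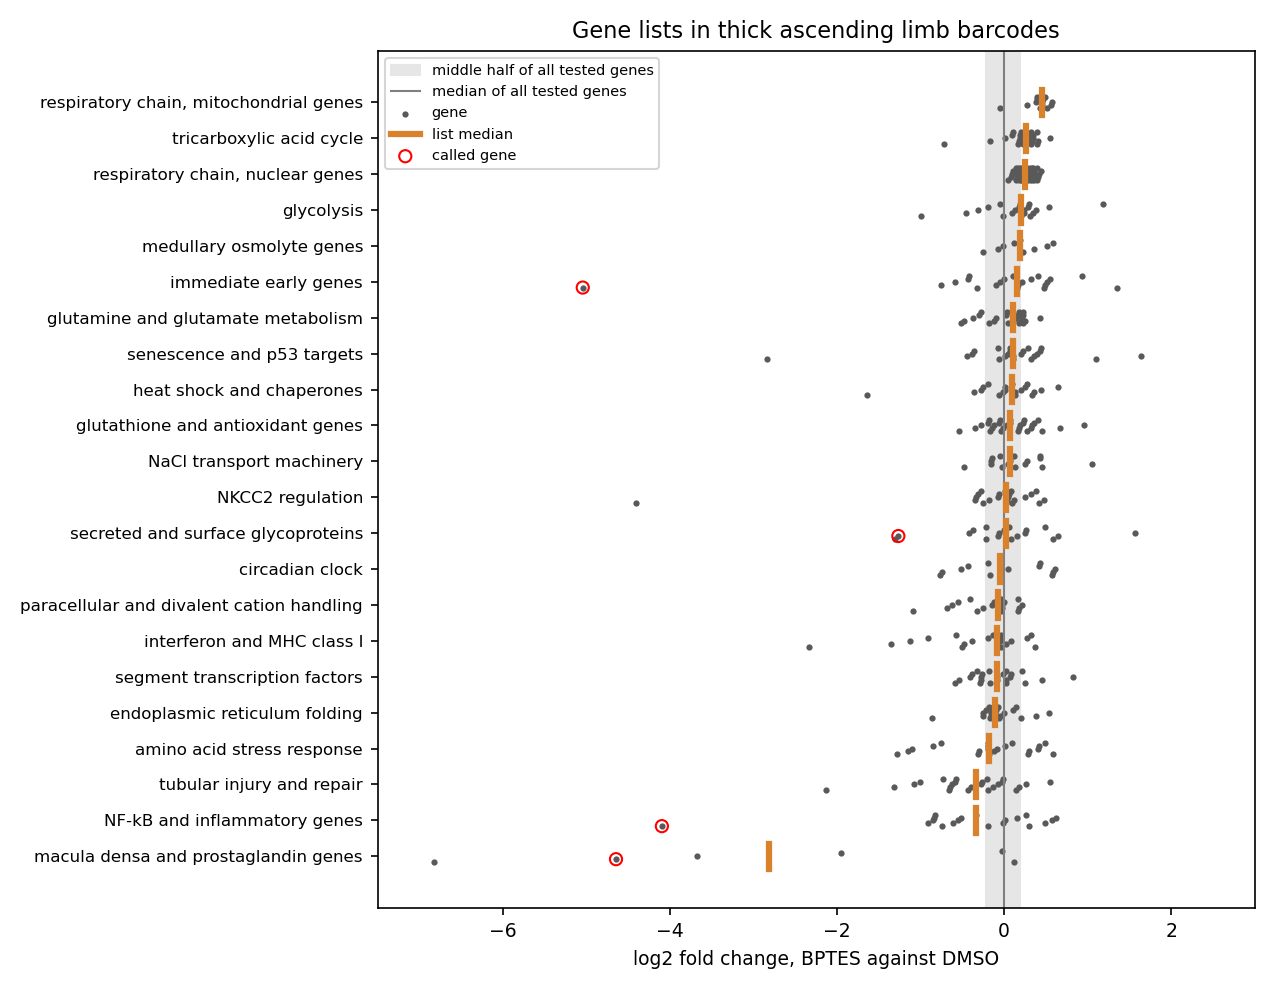
Log2 fold change (x axis, BPTES against DMSO) of each tested gene in 22 lists (rows, ordered by median). Orange bars are list medians, red circles called genes, and the grey band the interquartile range of all tested genes. Nos1 and Pappa2 are drawn at the bound that a floor of 3 UMIs gives. List medians run from -2.81 for the macula densa list to 0.46 for mitochondrially encoded genes, and 4 genes carry a red circle.

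Segment transcription factors included 23 tested genes with 0 calls, 1 higher and 9 lower without overlap (4.35% and 39.1%, against 16.7% and 17.9% of all tested genes) and a median log2 fold change of -0.08. Without DMSO library 1 there were 2 higher calls and without BPTES library 1 there was 1. Foxq1, which marked the Cldn16-leading members, was at 85.1 and 107 CPM under BPTES and 58.9 and 50.0 CPM under DMSO (log2 fold change 0.82, SE 0.20, adjusted p = 0.115, edgeR). In members with no Lrp2 or Slc34a1 UMI its log2 fold change was -0.51. Irx2, which marked the Cldn10-leading members, was at 71.7 and 88.2 against 109 and 120.5 CPM (log2 fold change -0.53, SE 0.19, adjusted p = 0.497). The shares of the 2 kinds of member overlapped between groups, as given above.

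Cell cycle inhibitors and p53 targets showed 0 calls among 22 tested genes. Cdkn1a, the gene for p21, was at 59.0 and 18.6 CPM under BPTES and 5.30 and 28.8 CPM under DMSO (log2 fold change 1.10, SE 1.14, adjusted p = 0.971, edgeR). In BPTES library 1, 85 of its 93 UMIs lay in 1 member. The log2 fold change was 0.01 without BPTES library 1 and 2.92 without DMSO library 2, where it passed (adjusted p = 3.1e-06). The list had 1 higher call without BPTES library 2, and 1 higher and 1 lower without DMSO library 2. The circadian clock (13 tested), interferon and MHC class I (21), heat shock (19), endoplasmic reticulum folding (23), antioxidant (28), glycolysis (20) and medullary osmolyte (9) lists also had 0 calls, with medians between -0.11 and 0.20. Leaving out 1 library gave at most 3 calls in any of these lists and moved their medians. The interferon median was -0.63 without BPTES library 1 and -0.33 without DMSO library 1, the glycolysis median 0.36 without DMSO library 1 and 0.04 without DMSO library 2, and the clock median -0.24 without BPTES library 1 and 0.10 without DMSO library 1. The antioxidant median was 0.24 without DMSO library 1 and the osmolyte median 0.35 without DMSO library 2. In the osmolyte list, Slc5a3, which imports inositol, was at 718 and 838 against 592 and 498 CPM (log2 fold change 0.51, SE 0.19, adjusted p = 0.54).

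Of the remaining called genes, none belonged to a list. Thsd4, an extracellular matrix gene, was at 108 and 139 CPM under BPTES and 259 and 244 CPM under DMSO (log2 fold change -1.03, SE 0.19, adjusted p = 0.0135, edgeR), and lost its call without BPTES library 1. Atg4a, a protease gene of autophagy, was at 12.1 and 18.6 against 36.5 and 50.9 CPM (adjusted p = 0.0178), and lost its call without BPTES library 1 or without DMSO library 2. Tubb2b, a beta tubulin gene, was at 37.4 and 21.4 against 65.3 and 79.1 CPM (adjusted p = 0.0216), and lost its call without BPTES library 2. Skap1, an adaptor gene best known from T cells, was at 19.0 and 12.1 against 37.1 and 48.7 CPM (adjusted p = 0.0348), and lost its call without BPTES library 2 or DMSO library 2. With the 25% mitochondrial limit these 4 calls were lost, while the log2 fold changes were -1.54 for Atg4a (-1.57 in all members), -1.14 for Tubb2b (-1.26), -1.42 for Skap1 (-1.44) and -0.86 for Thsd4. All 4 calls were also lost with no Lrp2 or Slc34a1 UMI. Thsd4 further lost its call with thinned members (log2 fold change -0.41) and in Cldn10-leading members alone (-0.77). The predicted genes AC166344.1 and AC149090.1 had log2 fold changes of -1.55 (SE 0.25, adjusted p = 0.00413) and -1.09 (SE 0.19, adjusted p = 0.0059). Opposite-strand genes overlap the former, and the annotation used here does not list the latter, so both are uncertain. Among the alternatives that ended these calls, AC149090.1 lost its call with the 25% mitochondrial limit (log2 fold change -0.91, adjusted p = 0.152) and with DESeq2 (adjusted p = 0.0534), and AC166344.1 with DESeq2 (adjusted p = 0.161).

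Genes with the smallest p that did not pass included Ndrg1, a hypoxia-responsive gene, at 123 and 89.1 CPM under BPTES and 199 and 179.7 CPM under DMSO (adjusted p = 0.112). Pigr, the receptor that carries polymeric antibodies across epithelium, was at 83.8 and 93.8 against 134 and 212 CPM (log2 fold change -0.98, SE 0.21, adjusted p = 0.0684). Lpl, the lipoprotein lipase gene, was at 366 and 370.4 against 254 and 163 CPM (log2 fold change 0.83, SE 0.20, adjusted p = 0.115). For all 3 genes the libraries of the groups did not overlap.

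To see where the segment differed from its neighbour, the effect of BPTES in members was compared with that in 526 distal convoluted tubule barcodes of the same libraries. The test of the difference called 20 of 10558 genes (0.189%), 11 with the higher effect in members (0.104%) and 9 with the lower (0.0852%). Without BPTES library 2 there were 107 such genes, without DMSO library 1 there were 92 and without DMSO library 2 there were 31. None of the named genes was among them. The genes named in this paragraph were chosen after their values were seen. Klk1, the tissue kallikrein gene, had a log2 fold change of -0.21 (SE 0.22) in members and 1.67 (SE 0.25) in the distal convoluted tubule, a difference of -1.89 (SE 0.22, adjusted p = 6.78e-05, edgeR). Kl, which encodes the FGF23 coreceptor klotho, had -0.06 in members and 0.94 in the neighbour (difference -1.03, SE 0.19). Defb1, a defensin gene, had -0.37 and 0.69 (difference -1.04, SE 0.18), and Ier3 -0.10 and 0.92 (difference -1.02, SE 0.19). Among the genes with the higher effect in members, Arl15 had -0.38 (SE 0.19) in members and -2.27 (SE 0.18) in the neighbour (difference 1.91, SE 0.18), and Cdh6, a cadherin gene, 0.41 (SE 0.62) and -3.78 (SE 0.56), a difference of 4.10 (SE 0.54). In members none of these 6 genes passed the test, while in the distal convoluted tubule Arl15 and Cdh6 fell (adjusted p = 9.8e-09 and 0.00056). In the distal convoluted tubule Klk1 and Ier3 rose (adjusted p = 0.00496 for both), while Kl and Defb1 missed the threshold (adjusted p = 0.0541 and 0.0555). Socs3 had -5.04 in members and -1.50 in the distal convoluted tubule, a difference of -3.57 that missed the threshold (adjusted p = 0.111).

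Against 18386 proximal tubule barcodes, the effect differed for 183 of 16259 genes (1.13%), 92 with the higher effect in members (0.566%) and 91 with the lower (0.56%). Leaving out BPTES library 1, BPTES library 2, DMSO library 1 or DMSO library 2 gave 94, 80, 339 and 100. The effect on Socs3 was more negative in members than in the proximal tubule, where the log2 fold change of -1.49 (SE 0.33) did not pass (adjusted p = 0.119), with a difference of -3.70 (SE 0.81, adjusted p = 0.00116, edgeR). Socs3 was named for its call in members, which the DMSO libraries alone let be tested, so this difference is a description. Lcn2 differed by -1.18 (SE 0.27, adjusted p = 0.00286), although its level in the proximal tubule was at most 1.06 CPM. Fitted alone, its effect had an SE of 0.47 in members and 0.39 in the proximal tubule, both larger than that of the difference. The p of this difference is therefore given as a description. Atg4a fell in members and had a log2 fold change of 0.09 (SE 0.08) in the proximal tubule, a difference of -1.66 (SE 0.31, adjusted p = 2.95e-05). Atg4a too was named for its call in members, so this difference is a description. Spp1 and Lgals3 had log2 fold changes of -0.80 (SE 0.21) and -0.88 (SE 0.11) in the proximal tubule, where neither passed (adjusted p = 0.149 and 0.06), and the test did not separate them from members (adjusted p = 0.543 and 0.831). In the distal convoluted tubule Spp1 fell too (log2 fold change -0.80, SE 0.18, adjusted p = 0.0241), and its difference from members was not called (adjusted p = 0.663). Lgals3 had -0.26 (SE 0.19) there, also without a called difference (adjusted p = 0.133).

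**Figure D5:**
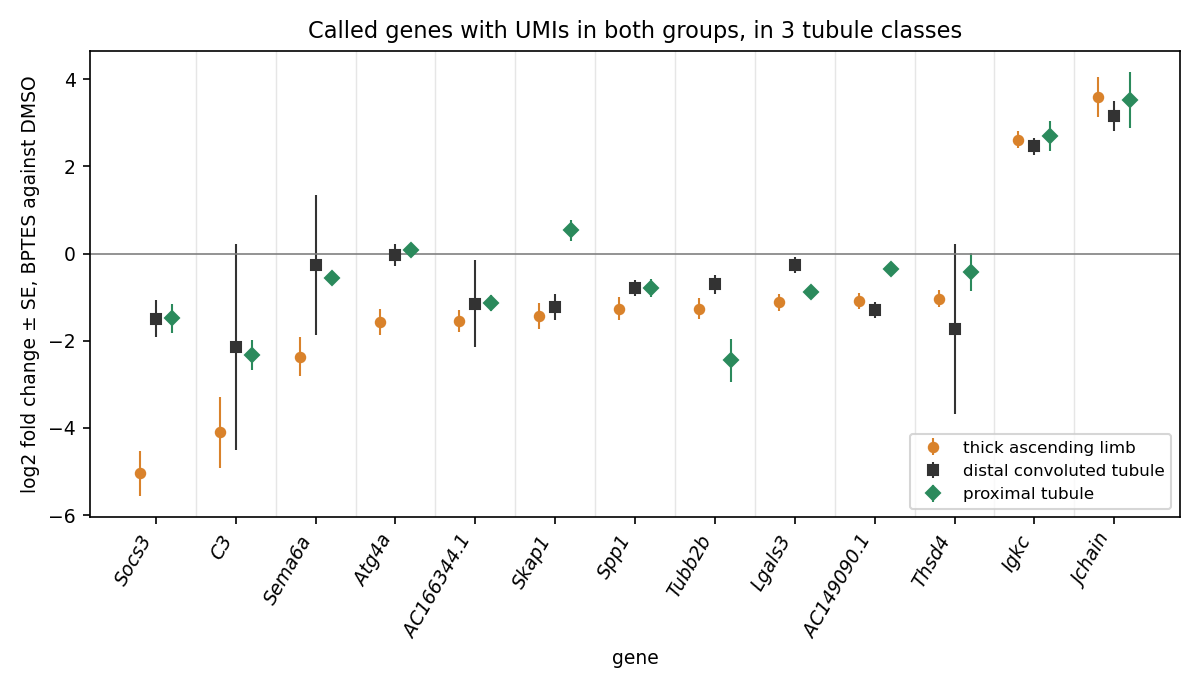
Log2 fold change ± SE (y axis, BPTES against DMSO) of the 13 called genes with UMIs in both groups (x axis) in thick ascending limb members (orange), distal convoluted tubule (black) and proximal tubule barcodes (green) of the same 4 libraries. Igkc and Jchain lie above 2 in all 3 classes, and Socs3 reaches -5.04 in members against -1.50 and -1.49 in the other two.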

How the data were processed

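Droplet single-cell RNA-seq of 4 kidney libraries was used. The deposited matrices hold whole-number UMI counts per gene and barcode, not normalised. The submitters' processing notes name Cell Ranger 8.0.1 and the mm10 build. The filter that set the deposited barcodes is not given in the sources used here.

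Barcodes with at least 500 UMIs, 300 genes and at most 50% mitochondrial UMIs were kept. Members, the mirrored distal convoluted tubule class, and proximal tubule barcodes (at least 5 UMIs of Lrp2 and Slc34a1) were chosen by raw UMIs. The members, the 22 gene lists and the tests were chosen with earlier results of these data known. UMIs were summed per library and class and tested with edgeR 4.0.16 (TMM, filterByExpr, robust quasi-likelihood test) in R 4.3.3, with Benjamini-Hochberg adjustment over all tested genes at 0.05. The 7 genes of the rule were counted in the library sizes and not tested, and the 13 mitochondrial genes were in the fit but are reported without their test. Effects were compared between classes by a class-by-treatment term in a joint fit, each library being a block. A difference given between classes is this term and need not equal the subtraction of the separate log2 fold changes. CPM of gene tests are TMM-scaled, and CPM of levels and marker sums are unscaled. DESeq2 1.42.0, other filters, thinning, left-out libraries and a replicate block were alternatives, as were 3 added after seeing the data. Scrublet (scanpy 1.11.5, 30 components) marked doublets at 0.4% per 1000 barcodes, which were left out only in an alternative. On simulated counts, changes were planted in some genes with a mean of at least 5 in log2 CPM. The member test recovered 67% of 2-fold and 100% of 4-fold changes, with 7 false calls among 9793 tested genes. The difference from the distal convoluted tubule recovered 22% and 90%, with 5 false calls among 9951. All genes were drawn at 1 common dispersion and without clumping in cells, so recovery for genes of few UMIs or few members was not measured.

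Named genes were the segment markers and core genes whatever they did, up to 12 called genes in each direction whose libraries did not overlap and whose mean reached 5 in log2 CPM, up to 4 called members of a list, and genes with the smallest p to a total of 20. Some of these core genes are not reported here. Other list genes given with values were picked after their values were seen. Gene positions are from GENCODE M21 on GRCm38, the assembly called mm10, and the windows before gene starts from RefSeq on GRCm38.p6.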

Additional observations from a re-analysis of the deposited data

Results flagged for a closer look

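For 16 of the named genes the effect of BPTES in members differed from that in proximal tubule barcodes of the same libraries, by the interaction test of edgeR at an adjusted p under 0.05. Each value below is the class-by-treatment term, on the log2 scale, from 1 joint fit of both classes. It need not equal the log2 fold change in members minus that in the proximal tubule from separate fits. The effect was more negative in members for Socs3 (-3.70), Skap1 (-1.96), Sema6a (-1.85), Atg4a (-1.66), Olfm4 (-1.29), Lcn2 (-1.18), Wsb1 (-0.95), Kcnj1 (-0.92), Maml2 (-0.82), AC149090.1 (-0.74), Pigr (-0.74), Thsd4 (-0.73) and Nav2 (-0.73). It was more positive for Cdkn1a (2.38), Rtl4 (1.80) and Lpl (1.06). None of the 16 differed from the distal convoluted tubule by the same test, and Lpl (0.87), Skap1 (-1.23) and AC149090.1 (-1.30) passed there themselves (adjusted p = 0.031, 0.0305 and 0.000564). The Cdkn1a value rests on BPTES library 1, where 85 of 93 UMIs lay in 1 member, and on a log2 fold change of -1.26 (SE 0.15) in the proximal tubule. Its SE was 0.33 for the difference but 1.14 for the effect in members alone, so this difference is a description. The same holds for Lcn2, with 0.27 against 0.47. Kcnj1, which is a gene of the distal nephron, had at most 3.92 CPM in proximal tubule barcodes. The groups held 2 libraries each, so no library was tested as standing apart within its group.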

How the results depend on the processing

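The 15 calls became 7 with DESeq2 (6 shared), 83 with no low-count filter, 35 with Slc12a1 at 3 or more UMIs, 39 without predicted doublets, 25 with thinned members (68.0% higher, against 13.3%), 35 without members holding 5 or more C1q UMIs and 52 to 216 with 1 library left out. The replicate block gave 8 calls (3 shared), so 12 of the 15 were lost with it, all but Igkc, Nos1 and Socs3, and DESeq2 lost 9. Similar totals also hid other genes. The 25% mitochondrial limit gave 11 calls (7 shared) and no Lrp2 or Slc34a1 UMI gave 14 (5 shared). Cldn16-leading members alone gave 10 (3 shared) and Cldn10-leading members alone 10 (6 shared). Deviations of same-numbered libraries from their group means had r = 0.0857 over 4748 genes. With 2 libraries a group both pairs give the same value, so it cannot settle whether the numbers mark pairs. The labels give the numbers no meaning. The difference from the distal convoluted tubule gave 93 genes with no filter, 34 with Slc12a1 at 3 or more and 23 to 107 with 1 library left out. That from the proximal tubule gave 80 to 339 with 1 library left out. The member share difference of -0.415 percentage points ran from -0.583 to -0.248 with 1 library left out. The Cldn16-leading difference of 3.68 points ran from 0.549 to 6.80, and turned to -3.85 with no Lrp2 or Slc34a1 UMI and to -0.42 with thinning. None of the calls reversed in the alternatives that gave a value. Igkc kept its call in 20 of 20, Socs3 in 17 of 19, Jchain in 18 of 20, Lgals3 in 17 of 20 and Spp1 in 14 of 20. These counts include the fits with 1 library left out, which support nothing. Most settings used the same low-count filter, which Socs3 and Jchain passed through the group where they are higher, so their counts are a description. C3 gave no value without DMSO library 2. The cause of each change was not tested.

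Some genes that were not called changed sign, with these log2 fold changes. With 1 library left out, Umod ran from -0.052 to 0.41, Kcnj1 from -0.079 to 0.18, Bsnd from -0.018 to 0.16, Cldn10 from -0.056 to 0.37, Cldn19 from -0.39 to 0.29 and Glul from -0.51 to 0.44. The 25% mitochondrial limit gave Umod -0.10. With no Lrp2 or Slc34a1 UMI, Bsnd was -0.085, Rtl4 -0.18 and Foxq1 -0.51. Among Cldn10-leading members, Kcnj1 was -0.017, Bsnd -0.032 and Cldn16 -0.038, and among Cldn16-leading ones Cldn10 was -1.23 and Cldn19 -0.23. Thinning gave Kcnj1 -0.42, Bsnd -0.34, Cldn10 -0.083, Cldn16 -0.042 and Cldn19 -0.31. Cldn19 was also -0.0020 with no filter, -0.039 with the replicate block, -0.0084 without doublets, -0.053 without Nos1 members and -0.015 without C1q members, and Glul was 0.024 without Nos1 members. With 105 to 174 members a library, genes of few cells are limited by counting.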
